A study of Mus musculus with 38 samples.

Results

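The mesendoderm regulators examined here were 10 genes for transcription factors that act as the primitive streak forms and gives rise to mesoderm and endoderm. They were T, Eomes, Mixl1, Gsc, Lhx1, Evx1, Mesp1, Mesp2, Tbx6 and Msgn1, taken as a list of names out of 21938 protein-coding genes. Each was examined over its gene body and 5 kb on either side, a window of 10613 to 18074 bp. For every window the regions called in each library, the base pairs they covered and the strength of the signal inside them were compared between 3 WT and 3 KO libraries per histone mark.

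ChIP-seq, the sequencing of DNA immunoprecipitated with an antibody to a histone mark, had been run on ES-E14TG2a, a line of mouse embryonic stem cells, grown on gelatin in medium with serum and leukemia inhibitory factor (Serum/LIF) and taken undifferentiated, at 0 h. IκBα-KO cells had been made by CRISPR-Cas9 with guides to Nfkbia, the gene that encodes IκBα, an inhibitor of NF-κB. IκBα-WT cells had received scrambled guides. Per the study's methods, the 3 replicates of a genotype were independent clones, so a difference can also reflect the clones that were picked, and bulk ChIP-seq cannot tell fewer cells with a mark from less of the mark in each cell. Replicates of a genotype shared 1 input library in each experiment.

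Pluripotent cells hold most lineage regulators silent but inducible. Polycomb repressive complex PRC2 places H3K27me3 over such genes, often together with H3K4me3 at the promoter, a state termed bivalent. H3K4me1 marks enhancers and the flanks of promoters, H3K27ac marks active promoters and enhancers, and H3K9me3 marks heterochromatin. On exit from pluripotency, NODAL, WNT, BMP and FGF signals switch on T, Eomes and Mixl1 in the streak, and then the mesoderm and endoderm programs.

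PRC2 is known to favour promoters rich in CpG dinucleotides, so the sequence just upstream of 6 of the 10 genes is shown, as examples from CpG-rich to CpG-poor. The sequences are those of RefSeq (GRCm38.p6), 5′ to 3′ on the gene's strand, in lower case with each CpG in capitals. Each ends just before the RefSeq or the GENCODE start, whichever lies further upstream.
Lhx1: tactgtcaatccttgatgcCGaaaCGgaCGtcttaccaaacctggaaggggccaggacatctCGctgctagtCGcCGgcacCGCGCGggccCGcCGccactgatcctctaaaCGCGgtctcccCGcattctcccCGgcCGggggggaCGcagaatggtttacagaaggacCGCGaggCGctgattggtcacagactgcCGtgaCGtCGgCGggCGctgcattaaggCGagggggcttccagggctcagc
Gsc: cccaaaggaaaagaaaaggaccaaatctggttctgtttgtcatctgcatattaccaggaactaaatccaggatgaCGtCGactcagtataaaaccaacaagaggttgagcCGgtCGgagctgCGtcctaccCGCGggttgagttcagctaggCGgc
T: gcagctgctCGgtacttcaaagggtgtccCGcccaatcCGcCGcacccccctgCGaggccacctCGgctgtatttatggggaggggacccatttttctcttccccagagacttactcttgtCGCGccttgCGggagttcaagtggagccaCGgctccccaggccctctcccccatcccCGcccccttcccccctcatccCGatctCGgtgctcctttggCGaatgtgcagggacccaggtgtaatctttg
Eomes: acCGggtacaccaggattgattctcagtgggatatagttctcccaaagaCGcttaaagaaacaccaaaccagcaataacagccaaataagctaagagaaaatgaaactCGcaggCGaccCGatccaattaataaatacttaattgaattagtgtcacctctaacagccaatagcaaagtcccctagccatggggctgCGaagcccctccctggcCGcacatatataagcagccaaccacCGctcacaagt
Tbx6: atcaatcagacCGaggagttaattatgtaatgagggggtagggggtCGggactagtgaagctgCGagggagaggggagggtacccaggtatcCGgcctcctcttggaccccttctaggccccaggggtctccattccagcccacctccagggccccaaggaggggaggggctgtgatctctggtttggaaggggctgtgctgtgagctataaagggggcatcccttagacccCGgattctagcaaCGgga
Msgn1: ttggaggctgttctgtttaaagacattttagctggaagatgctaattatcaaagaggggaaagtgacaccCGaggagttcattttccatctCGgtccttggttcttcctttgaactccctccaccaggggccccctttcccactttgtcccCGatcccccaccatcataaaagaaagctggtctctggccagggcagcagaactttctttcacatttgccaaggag

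These stretches lie at chr11:84525536-84525784 (minus strand, Lhx1), chr12:104473331-104473486 (minus, Gsc), chr17:8434173-8434422 (plus, T), chr9:118477939-118478188 (plus, Eomes), chr7:126781233-126781482 (plus, Tbx6) and chr12:11208973-11209198 (minus, Msgn1). Of the 10 genes, 9 matched an entry in the RefSeq promoter table. Over the 300 bases from 250 before to 50 after the start, Lhx1 held 31 CpGs, Gsc 25, T 17, Evx1 12, Eomes and Mesp2 10 each, Tbx6 7, and Mesp1 and Msgn1 4 each, against a median of 7 over 32851 promoters. The genes thus ran from 89.4% of promoters having fewer CpGs (Lhx1) to 31.4% (Mesp1 and Msgn1). Of 4 motifs searched on both strands, the TCF/LEF motif CTTTGA was found in these windows of T, Mesp1 and Msgn1, and in 16.0% of all promoters. The T-box motif TCACACC was found at Mesp1 (3.98% of promoters), the FOXH1 motif AATCCACA at Mesp2 (0.855%) and TATAAA at Gsc and Tbx6 (13.6%). These are matches of letters and not known sites, and no motif is contained in another.

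The lists held 21836 to 26806 H3K4me3 peaks per library, with no read counts. For the other marks the ChIP reads inside called regions could be summed. An H3K27me3 library held 8910890 to 10938375, an H3K9me3 library 8548342 to 12105343, an H3K4me1 library 34736939 to 35951506 and an H3K27ac library 22943091 to 28339766. The 5′ ends of Pou5f1, Sox2, Nanog and Zfp42, genes of the pluripotency network, lay under H3K27ac and outside H3K27me3 in all 6 libraries of each mark, whereas that of Esrrb, the other of 5 pluripotency genes listed, lay under H3K27me3 in all 6 and under H3K27ac in 0. H3K27me3 also covered the 5′ ends of 3 of 3 primitive endoderm and 3 of 3 fibroblast marker genes in all 6, of which Gata6 and Thy1 lay under H3K27ac as well. Of 2 trophectoderm marker genes, Cdx2 lay under both marks in all 6. The other, Elf5, lay under H3K27me3 in 4 and under H3K27ac in 0. As a check of the labels, the highest H3K4me3 peak at Nfkbia had a fold enrichment over input of 10.3 to 13.8 in the WT libraries and 3.71 to 5.21 in the KO libraries.

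At the mesendoderm regulators, H3K27me3 and H3K4me1 occurred together with little H3K9me3. H3K27me3 was called in the windows of 9 of the 10 genes in all 6 libraries, against 44.4% of all protein-coding genes, and the exception was Tbx6, with no H3K27me3 region in any library. H3K4me1 was called in 10 of 10 windows in all 6 libraries (76.0% of all genes), H3K4me3 in 9 (61.7%), H3K27ac in 7 (66.7%) and H3K9me3 in 0 (27.9%). Of the window, H3K27me3 covered a median of 89.0% in WT and 83.8% in KO, against 3.20% and 3.11% over all genes. The corresponding medians for H3K4me1 were 85.8% and 71.2%, against 39.8% and 39.7%. The windows of all genes varied with gene length and were not matched in length to those of the 10 genes. The map of covered shares by library shows these patterns side by side.

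**Figure D1:**
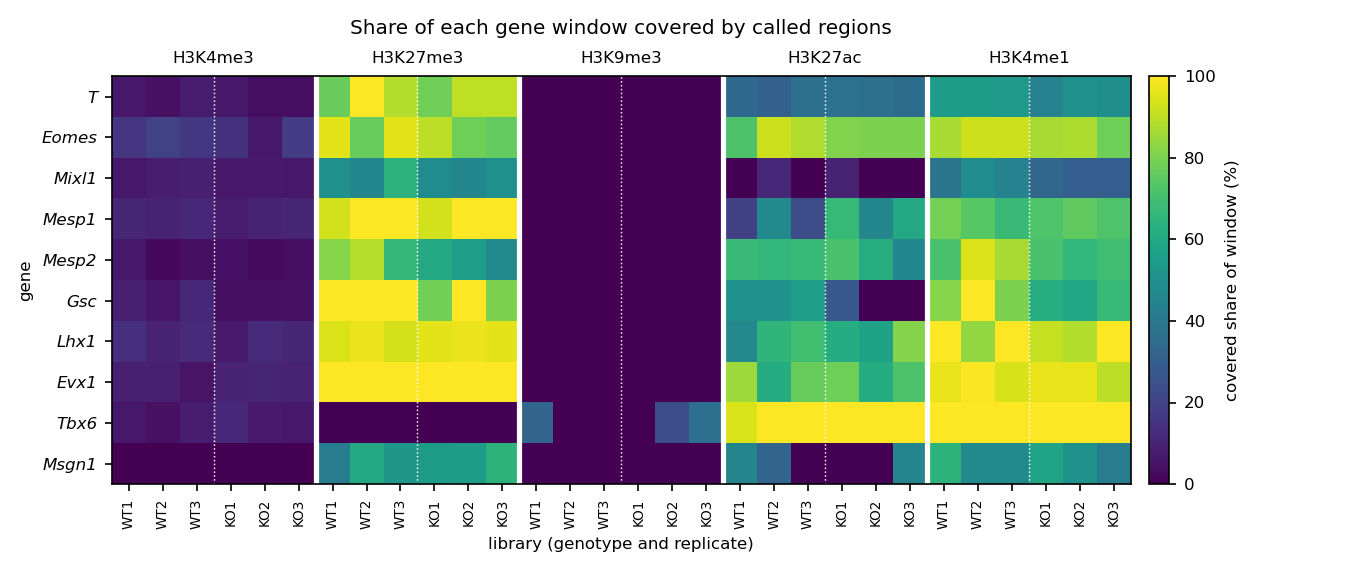
Share of each gene window (gene body and 5 kb either side) covered by called regions, in percent, for the 10 genes (rows) in each of the 30 libraries (columns, grouped by mark, WT 1 to 3 then KO 1 to 3). Tbx6 stands apart, with no H3K27me3 region in 6 libraries and 94.3% to 100% of its window under H3K27ac.

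The 5′ end itself lay under H3K27me3 in all 6 libraries at 9 of the 10 genes (22.0% of all genes) and under H3K4me1 at 10 (35.2%). Both marks met there at 9 of 10 genes, against 17.3% of all genes. H3K27ac covered it in all 6 at T, Eomes, Lhx1 and Tbx6 (49.0% of all genes) and H3K4me3 at Mixl1 and Lhx1 (28.0%), while H3K9me3 covered it at no member (1.34%). H3K4me3 peaks often lay to the side of the start. With at least 500 bp covered within 1000 bp on either side of the 5′ end required instead, H3K4me3 was counted at 6 genes. H3K4me3 with H3K27me3 was counted at 6, against 11.8% of all genes. These 6 were T, Eomes, Mixl1, Mesp1, Lhx1 and Evx1.

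**Figure D2:**
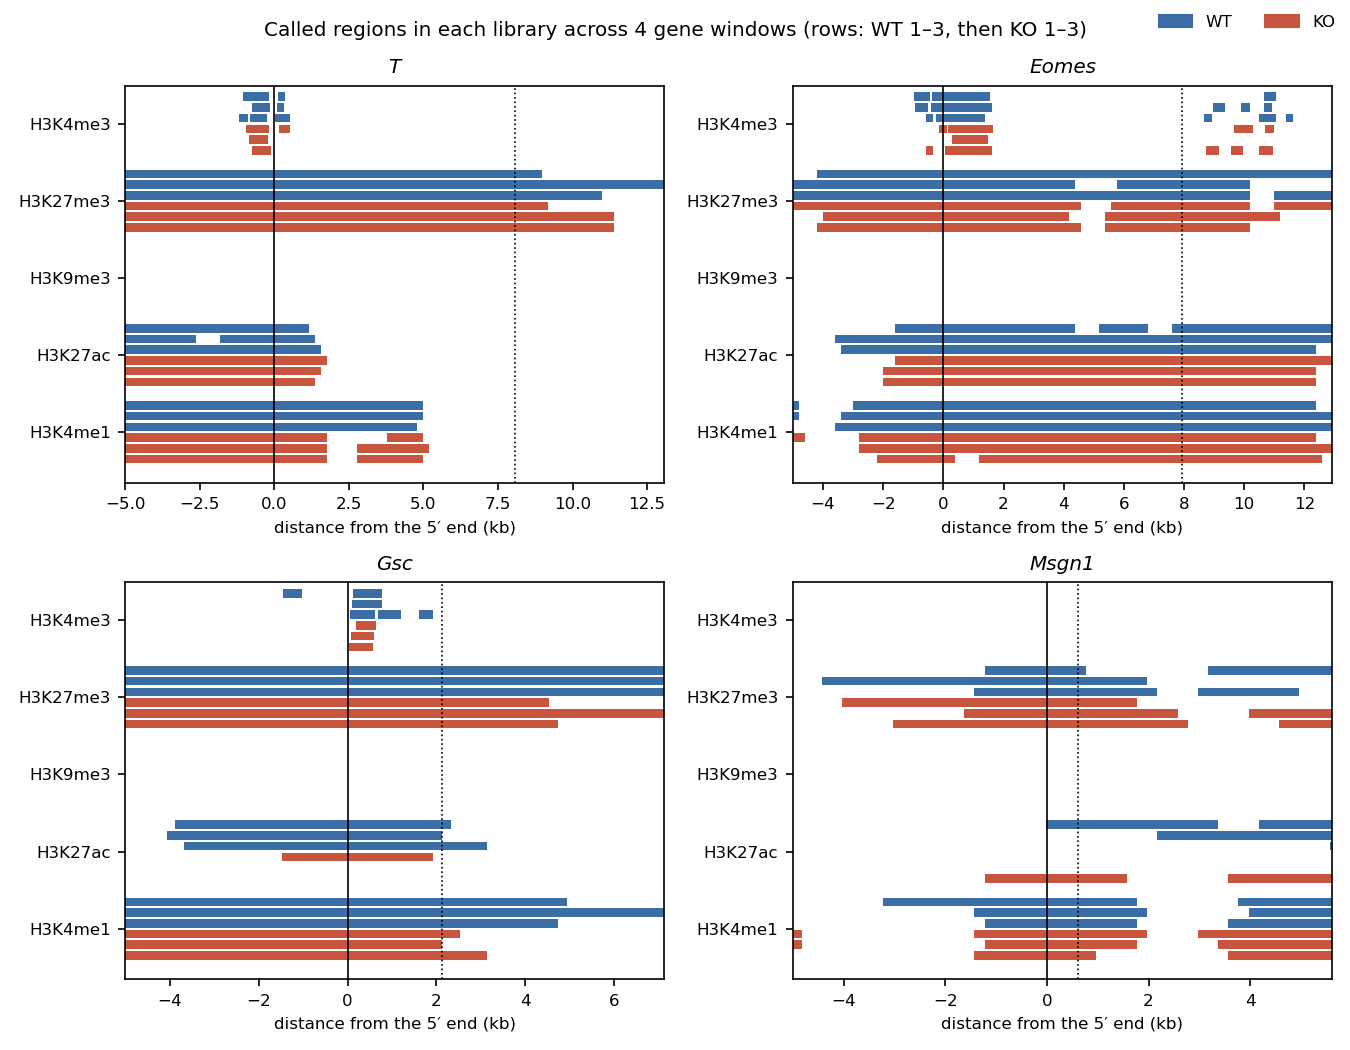
Called regions across the windows of T, Eomes, Gsc and Msgn1, drawn to scale as distance from the 5′ end in kb, with the solid line at the 5′ end and the dotted line at the 3′ end. Each mark has 6 rows (WT 1 to 3 in blue, KO 1 to 3 in red). At T the H3K4me3 peaks leave the 5′ end itself uncovered, at Gsc H3K27ac is called in 3 WT libraries and 1 KO library, and at Msgn1 no H3K4me3 peak is called.

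H3K27me3 was compared by read density, which divides the ChIP reads of a region by its length in kb and scales them between libraries. In WT cells the level was highest at Lhx1 with 118 ± 9.61 (SD, n = 3) and Evx1 with 106 ± 7.27, followed by Mixl1 with 83.1 ± 13.0, T with 80.5 ± 14.1, Gsc with 79.2 ± 8.07, Eomes with 70.9 ± 11.3, Mesp1 with 68.4 ± 11.7, Mesp2 with 52.5 ± 3.49 and Msgn1 with 31.7 ± 4.06. Neighbours in this order overlapped between libraries except for Mesp1 and Mesp2, and Mesp2 and Msgn1. The median over all tested genes was 39.5, so that Msgn1, a basic helix-loop-helix factor of presomitic mesoderm, was the only one of the 9 below it. Lhx1, a LIM-homeodomain factor of anterior mesendoderm and the head organizer, lay above 98.6% of the 9733 genes tested, and Evx1, an even-skipped homeobox factor of the posterior streak, above 97.8%. Both were covered over 93.5% to 100% of their windows, in regions of 22200 to 42800 bp that ran past the window.

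A gene was tested where it had a region in all 6 libraries, which left out Tbx6. Between genotypes, 1 of the 9 tested genes passed the edgeR quasi-likelihood test for H3K27me3 density at a Benjamini-Hochberg adjusted p under 0.05. It was Gsc, which was lower in KO, where 0.524% of all tested genes were lower and 1.05% were higher. Gsc (ENSMUSG00000021095, chr12:104471209-104473330, minus strand) encodes a homeobox factor of the anterior streak and organizer. Its normalised density was 70.6, 86.6 and 80.5 reads per kb in WT and 57.1, 46.0 and 51.8 in KO. The groups did not overlap. H3K27me3 at Gsc fell by 35.0%, a log2 KO/WT of −0.62 ± 0.10 (SE) with an adjusted p of 0.0166. The call was lost without WT replicate 2, WT replicate 3, KO replicate 2 or KO replicate 3 (adjusted p 0.0541 to 0.0617), and with the replicate number as a block (0.0626).

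At the other 8 genes the H3K27me3 log2 KO/WT lay between −0.14 and 0.30. T (chr17:8434423-8442496, plus strand), the T-box factor brachyury of the streak and notochord, had 82.8, 65.3 and 93.3 reads per kb in WT and 77.7, 77.1 and 83.4 in KO. The values overlapped, with a log2 of −0.02 ± 0.11 and an adjusted p of 0.965 in edgeR. Eomes (chr9:118478212-118486132, plus strand), a T-box factor of definitive endoderm and early mesoderm, had 71.2, 82.1 and 59.5 in WT and 66.0, 76.2 and 82.9 in KO, again overlapping. Mixl1 (chr1:180693043-180697034, minus strand), a paired-type homeobox factor of the streak, had the highest log2 of the 9, at 0.30 ± 0.12, from 77.4, 98.0 and 73.8 in WT to 99.0, 113 and 94.2 in KO. Its groups overlapped and the adjusted p was 0.280. Over the 9 genes the median log2 was −0.07, against 0.00 over all tested genes.

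Evx1 (chr6:52313498-52318378, plus strand) had H3K27me3 densities of 97.2, 109 and 110.2 in WT and 96.7, 96.6 and 95.0 in KO. The groups did not overlap, but the log2 of −0.14 ± 0.06 had an adjusted p of 0.346. Its window was covered completely in all 6 libraries. Lhx1 (chr11:84518284-84525535, minus strand) spread widely among the KO libraries, with 103, 143 and 91.5 reads per kb against 107, 123 and 124 in WT. The value of KO replicate 2 was the highest of the 6, and the groups overlapped. The regions were 35400, 22200 and 42800 bp long in KO and 31000, 31400 and 30800 bp in WT. The highest density thus came from the shortest region, and the values do not describe the same sequence.

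Mesp1 (chr7:79792241-79793788, minus strand) and Mesp2 (chr7:79810727-79813439, plus strand) are basic helix-loop-helix factors, of nascent and cardiac mesoderm and of somite segmentation respectively. They lie 16938 bp apart, so their windows can share a region, and in KO replicates 2 and 3 a single H3K27me3 region reached into both windows. The values of the pair are then not independent. Mesp2 was the only gene whose H3K27me3 coverage did not overlap between genotypes, with 10400, 11274 and 8474 bp in WT and 7674, 7074 and 6074 bp in KO. Coverage was lower without overlap at 8.64% of genes and higher at 12.4%. The exact two-sided permutation p was 0.1, the smallest that 3 libraries against 3 can give. The groups overlapped when calls at an FDR under 0.01, or the same number of top-ranked calls per library, were used. The density of reads inside these calls was 53.9, 48.5 and 55.1 in WT and 55.5, 61.8 and 59.0 in KO. The KO values were higher without overlap, and did not pass the edgeR test (log2 0.17 ± 0.08, adjusted p 0.368). These densities count whole regions. In KO replicate 2 the only region was the shared one, and in KO replicate 3 the shared one held 1117 reads and the other 417. The densities thus do not describe the Mesp2 window alone. Mesp1 had 56.6, 68.7 and 80.0 in WT and 72.3, 61.8 and 55.5 in KO, with overlap.

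**Figure D3:**
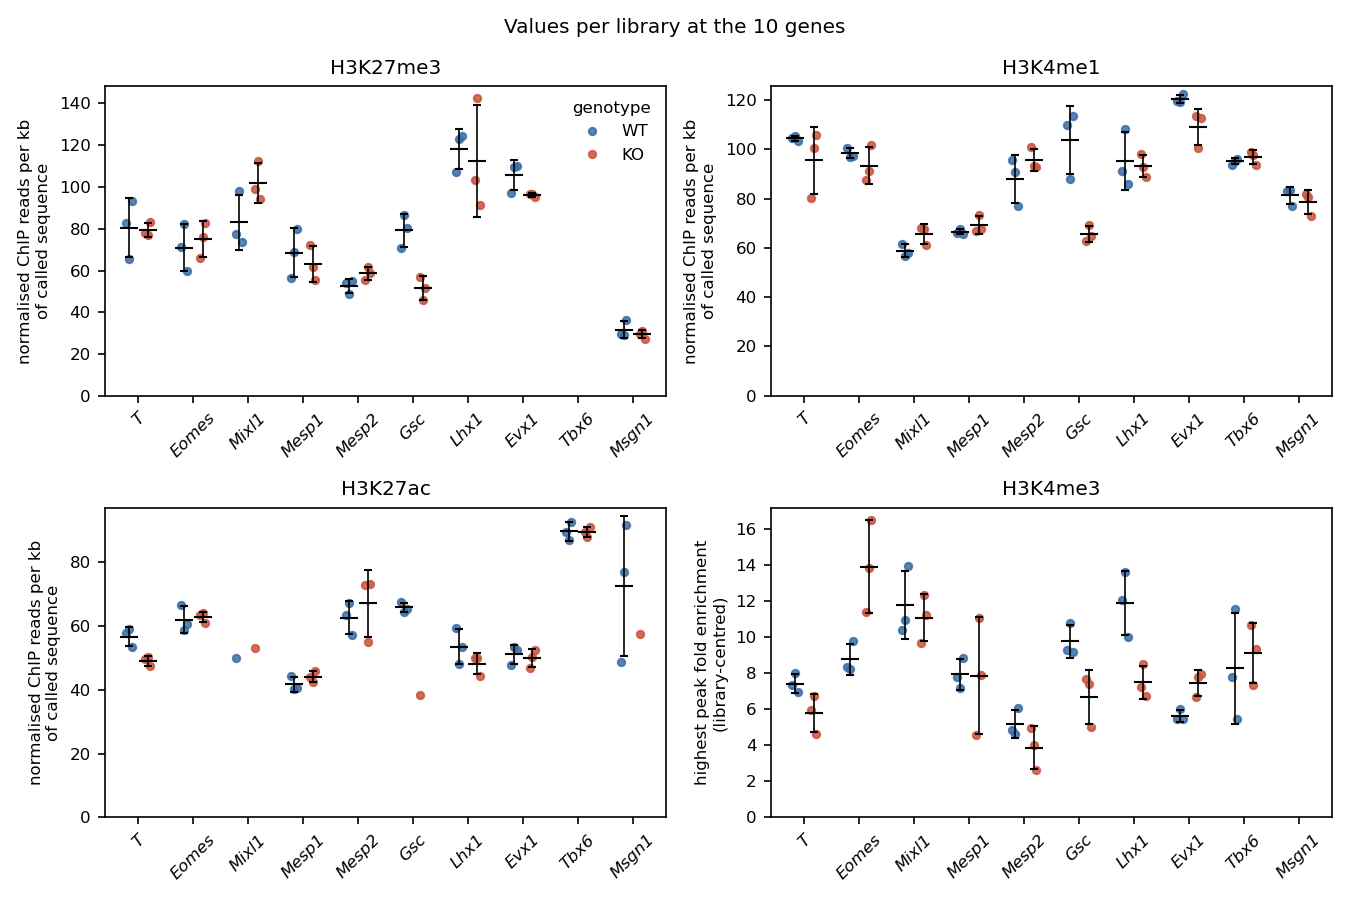
Signal in each library at the 10 genes for 4 marks, with WT in blue and KO in red. Dashes and bars are the mean and SD of 3 libraries, drawn only where all 3 have a call. The vertical axes start at 0 and give normalised ChIP reads per kb of called sequence, or, for H3K4me3, the highest peak fold enrichment over input after centring. Of the genes at an adjusted p under 0.05, Gsc is separated between the genotypes in H3K27me3 and H3K4me1, and Eomes and Lhx1 in H3K4me3. The H3K4me3 values of Lhx1 come from different peaks, in WT from those at the start of the neighbouring gene Aatf. Some genes that did not pass are separated as well, such as Evx1 in H3K27me3 and T in H3K27ac.

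H3K4me1 was dense at most of the genes. In WT cells Evx1 had 120.4 ± 1.73 reads per kb (SD, n = 3), above 99.6% of the 16679 genes tested, and T had 104.5 ± 1.06. Next came Gsc with 104 ± 13.8, Eomes with 98.4 ± 2.04, Tbx6 with 95.1 ± 1.23, Lhx1 with 95.1 ± 11.7, Mesp2 with 87.8 ± 9.77, Msgn1 with 81.3 ± 3.58, Mesp1 with 66.6 ± 1.07 and Mixl1 with 58.8 ± 2.58. The median of all tested genes was 71.2, so that 8 of the 10 exceeded it. Neighbours whose libraries did not overlap were Evx1 and T, Eomes and Tbx6, Msgn1 and Mesp1, and Mesp1 and Mixl1.

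Again 1 gene, Gsc, passed the edgeR test, in the lower direction, against 2.66% of all tested genes lower and 5.62% higher. H3K4me1 at Gsc was 109.9, 87.9 and 113 reads per kb in WT and 62.8, 69.3 and 64.9 in KO, without overlap. This was a fall by 36.4%, with a log2 of −0.65 ± 0.10 and an adjusted p of 0.00153. It held in all 14 alternatives that could be fitted, where the adjusted p was at most 0.0112. The other 9 genes had log2 values between −0.14 and 0.16. Evx1 was the nearest to the threshold, with 119, 119 and 122 reads per kb in WT and 113, 100.5 and 113 in KO (log2 −0.14 ± 0.06, adjusted p 0.157). It passed among genes with regions of like length (log2 −0.21, adjusted p 0.00631), as did 35.3% of the genes in that test. The median over the 10 genes was −0.03, against −0.00 over all tested genes.

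The mean H3K4me1 coverage was lower in KO in 9 of the 10 windows, against 56.5% of all genes, and Tbx6 was covered completely in every library. The difference was only −13.3 bp at Mesp1, and its sign turned when 1 library was left out at Mesp1 (each but WT replicate 3 and KO replicate 2), Lhx1 (WT replicate 1, WT replicate 3 or KO replicate 2) and Msgn1 (WT replicate 1 or KO replicate 3). Coverage did not overlap at T, Mixl1 and Gsc, all lower in KO, against 15.7% of genes lower and 11.9% higher without overlap. T had 9978, 9978 and 9778 bp in WT and 7978, 9178 and 8978 bp in KO. Mixl1 had 5400, 6800 and 6200 bp in WT and 4600, 4200 and 4200 bp in KO. Gsc had 9930, 12122 and 9730 bp in WT and 7530, 7130 and 8130 bp in KO. For each of them the exact permutation p was 0.1. At T the shortening was a gap within the gene body, downstream of the 5′ end in all 3 KO libraries and in no WT library, as the map of called regions shows. Read density at T did not separate, with 104.5, 105.5 and 103 in WT and 80.3, 100.4 and 106 in KO. The low value of KO replicate 1 lay apart from the others. Its called regions summed to 15800 bp, against 10400 to 11600 bp in the other libraries, so it covers more sequence.

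H3K27ac divided the genes. Tbx6 (chr7:126781483-126785560, plus strand), the T-box factor of paraxial mesoderm, had 89.7 ± 2.90 reads per kb in WT, above 91.2% of the 14625 genes tested, in regions of 25000 to 61000 bp. Its window also holds the 5′ end of Ypel3, at −4528 bp from that of Tbx6 (negative values are upstream), and part of Ppp4c, and epic2 regions this wide cannot be split between the genes. Mesp2 followed with 62.6 ± 5.19 and Eomes with 62.0 ± 4.16, then T with 56.7 ± 2.91, Lhx1 with 53.6 ± 5.61 and Evx1 with 51.1 ± 3.07. Mesp1 was last with 41.7 ± 2.35, above only 0.916% of tested genes, and the median of all genes was 60.6. Among neighbours in this order the libraries of Tbx6 and Mesp2 and of Evx1 and Mesp1 did not overlap.

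Mixl1, Gsc and Msgn1 lacked an H3K27ac region in some libraries and were not tested for density. Mixl1 had 1600 bp in WT replicate 2 and 1400 bp in KO replicate 1 and none elsewhere. Msgn1 (chr12:11208360-11208972, minus strand) had 4841, 3441 and 41 bp in WT and 0, 0 and 4841 bp in KO. Gsc had 6200, 6200 and 6800 bp in WT and 3400, 0 and 0 bp in KO, and was the 1 gene of the 10 without overlap, where 8.56% of genes were lower and 22.6% higher. The exact permutation p was 0.1.

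Of the 7 genes tested for H3K27ac density, 0 passed the edgeR test at an adjusted p under 0.05, and 0 with DESeq2, against 6.99% of tested genes higher and 2.37% lower. At an unadjusted p under 0.05 there was 1, T, against 25.1% of all tested genes. It had 57.8, 58.9 and 53.4 reads per kb in WT and 49.7, 50.1 and 47.4 in KO, without overlap. The log2 was −0.21 ± 0.08 with an adjusted p of 0.171. When only genes with regions of like length in all libraries were tested, without the length offset, T was the 1 gene of the 10 that could be tested and passed, with an adjusted p of 0.0162 and a log2 of −0.26, as did 39.7% of the 1661 genes in that test. The other 6 lay between −0.15 and 0.10, with Tbx6 at −0.00 ± 0.04.

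H3K4me3 was compared by the highest MACS2 fold enrichment over input among the peaks in the window, each library centred on its median. In WT cells Lhx1 had 11.9 ± 1.79 (SD, n = 3) and Mixl1 11.8 ± 1.89, near the median of 11.3 over 13533 tested genes, and Gsc had 9.76 ± 0.906. The value of Lhx1 came from peaks at the start of the neighbouring gene Aatf. Peaks within 2 kb of Lhx1's own 5′ end had an uncentred fold of 8.64, 8.43 and 9.66 in WT. Eomes had 8.76 ± 0.860, Tbx6 8.27 ± 3.08, Mesp1 7.94 ± 0.853 and T 7.41 ± 0.518. Evx1 had 5.64 ± 0.331 and Mesp2 5.17 ± 0.776, above only 3.35% and 1.80% of genes. Msgn1 had no peak in any library. At Tbx6 the peak summit lay at −4505 to −4435 bp from the 5′ end, close to the start of Ypel3, and Tbx6's own start lay under no peak in any library.

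With limma, 2 of the 9 tested genes passed at an adjusted p under 0.05, Eomes in the higher and Lhx1 in the lower direction. Over all tested genes 9.96% were higher and 10.7% lower. At Eomes the centred fold enrichment was 8.32, 8.21 and 9.75 in WT and 11.4, 13.9 and 16.5 in KO. All KO values exceeded all WT values, a rise by 57.4% with a log2 of 0.65 ± 0.19 and an adjusted p of 0.0209. The summit lay at 766 to 885 bp downstream of the 5′ end in all 6 libraries. The peaks that held it were 1598 to 2031 bp long in WT, where they reached over the 5′ end, and 1181 to 1552 bp in KO, where they began at 65 to 298 bp downstream of it. This peak was thus higher and shorter in the KO libraries. In KO replicate 1 a separate peak from −130 to 114 bp covered the 5′ end. The length under all H3K4me3 peaks in the Eomes window overlapped, with 2840, 3458 and 2899 bp in WT and 2651, 1181 and 3085 bp in KO. The limma call at Eomes was lost without WT replicate 1, WT replicate 2, KO replicate 2 or KO replicate 3 (adjusted p 0.0572 to 0.102).

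At Lhx1 the highest peak in the window had 12.0, 13.6 and 10.0 in WT and 7.21, 8.50 and 6.75 in KO (log2 −0.66 ± 0.20, adjusted p 0.0238 in limma). The WT summits lay at 12155 to 12213 bp downstream of Lhx1's 5′ end, at the 5′ end of the neighbouring gene Aatf, which begins 12013 bp downstream. In KO replicate 3 the summit lay there too, but in KO replicates 1 and 2 it lay at 37 and −110 bp, at Lhx1's own start. The values thus came from different peaks. For peaks within 2 kb of Lhx1's 5′ end, a choice made after the values were seen, the uncentred fold was 8.64, 8.43 and 9.66 in WT and 7.02, 8.95 and 6.64 in KO. These overlapped, with a log2 of −0.34 and an adjusted p of 0.250. With a window of 2 kb on either side of the gene the adjusted p was 0.252, and without centring 0.0621. The call was also lost without WT replicate 1, WT replicate 2, KO replicate 1 or KO replicate 3 (0.0662 to 0.101).

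Of the other genes, Gsc had 9.29, 10.8 and 9.18 in WT and 7.70, 7.37 and 4.98 in KO, without overlap, with a log2 of −0.57 ± 0.22 and an adjusted p of 0.0671 in limma. Evx1 had 5.44, 6.02 and 5.45 in WT and 6.65, 7.76 and 7.97 in KO, also without overlap (log2 0.40 ± 0.21, adjusted p 0.176). As at Lhx1 these came from different peaks, with the summit at 3236 bp in WT replicate 1 and 3181 bp in KO replicate 1 and at 8 to 513 bp in the others. For peaks within 2 kb of its 5′ end the uncentred fold was 5.03, 5.33 and 5.83 in WT and 5.66, 8.16 and 8.50 in KO, with overlap (adjusted p 0.258). T had 7.31, 7.98 and 6.96 in WT and 5.98, 6.75 and 4.63 in KO, just without overlap (log2 −0.37 ± 0.22, adjusted p 0.232). Its summit lay at −642 to −293 bp, upstream of the start. Mesp1 spread widely in KO, with 4.59, 11.1 and 7.89, around the WT values of 7.81, 7.15 and 8.85. The median log2 over the 9 genes was −0.10, against −0.02 over all tested genes.

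The length under H3K4me3 peaks did not overlap at Gsc and Evx1, in opposite directions, where 25.6% of genes were higher and 7.57% lower. Gsc had 1080, 664 and 1417 bp in WT and 449, 510 and 560 bp in KO. Evx1 had 1311, 1242 and 804 bp in WT and 1428, 1537 and 1447 bp in KO. The exact permutation p was 0.1 for each.

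**Figure D4:**
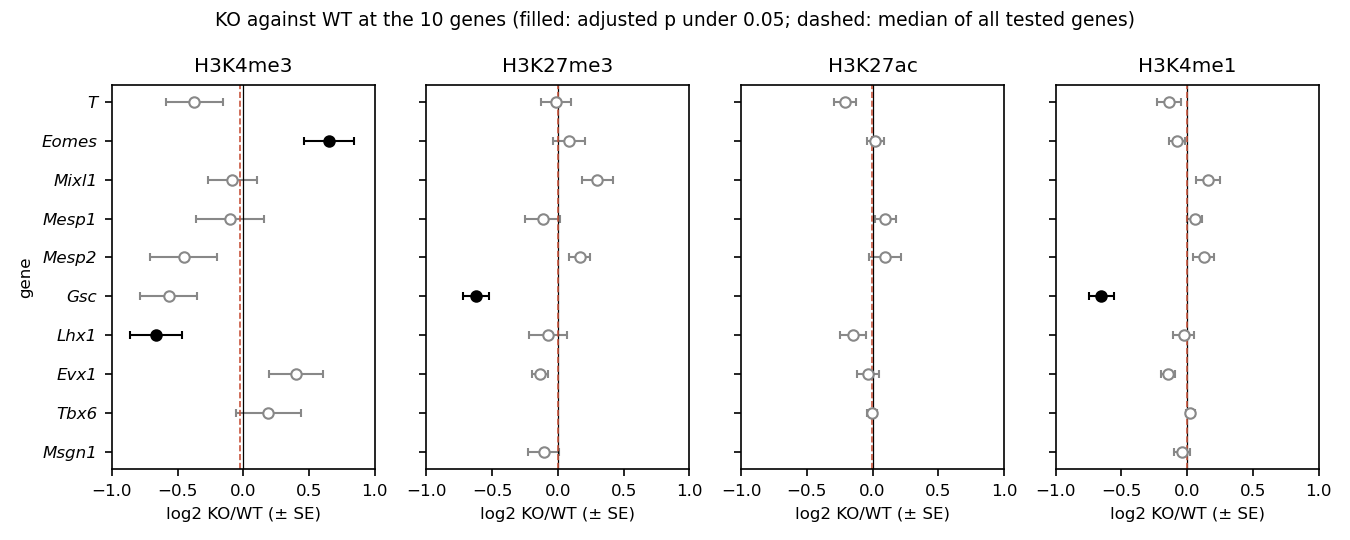
Log2 KO/WT with its SE for each gene and mark (edgeR density for H3K27me3, H3K27ac and H3K4me1, limma peak fold enrichment for H3K4me3). Filled points have an adjusted p under 0.05 and the dashed line is the median of all tested genes. Gsc is filled in H3K27me3 and H3K4me1, Eomes and Lhx1 in H3K4me3, and the rest lie between −0.57 and 0.40. The H3K4me3 point of Lhx1 compares different peaks, in WT those at the start of the neighbouring gene Aatf.

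H3K9me3 was found only at Tbx6, and not in every library. WT replicate 1 had 4600 bp, KO replicate 2 had 3360 bp and KO replicate 3 had 5160 bp, while the other 3 libraries had none. The regions lay 3518 to 9117 bp downstream of the 5′ end, at the 3′ end of Tbx6 and beyond. Their read densities of 26.4, 37.0 and 32.6 per kb were not tested. No gene of the 10 changed in coverage without overlap, where 6.3% of genes were higher and 15.1% lower, and none had a region in all 6 libraries, where 0.261% of tested genes were higher in density and 0.832% lower.

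Gsc, the gene that passed the test in both H3K27me3 and H3K4me1, lies in a stretch of chromosome 12 where the KO input itself was lower. Input reads per kb of called sequence in the 1 Mb window that holds Gsc had a log2 KO/WT of −0.94 in the H3K27me3 lists, −0.91 in the H3K9me3 lists, −0.83 in the H3K27ac lists and −0.88 in the H3K4me1 lists. The last 2 share 1 pair of input libraries, so these values rest on 3 pairs of input libraries. At the other 9 genes this value lay between −0.07 and 0.18. Consecutive windows around Gsc were joined where the mean input log2 over the lists was under −0.5. Elsewhere in the genome 14 windows also lay under this cut. Within the stretch the input log2 of single windows reached −0.02 in the H3K4me1 lists. The stretch ran over 18 consecutive windows, from 103000001 to 121000000, with 148 protein-coding genes, and Gsc lay in the 2nd window. Nfkbia, the targeted gene, lies on the same chromosome outside it.

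The other genes of the stretch moved with Gsc. In H3K27me3 density, 43 of 50 other tested genes had a log2 below 0 and 16 passed the test as lower, with a median of −0.36. In H3K4me1, 95 of 95 were below 0 and 80 passed as lower, with a median of −0.55. For H3K4me3 the median over 84 genes was −0.37 with 20 lower, and for H3K27ac it was −0.18 over 60 genes with 25 lower. The log2 of Gsc minus the median of the other genes in the stretch was −0.26 in H3K27me3, where 14% of them had a lower value, −0.11 in H3K4me1 and −0.19 in H3K4me3.

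**Figure D5:**
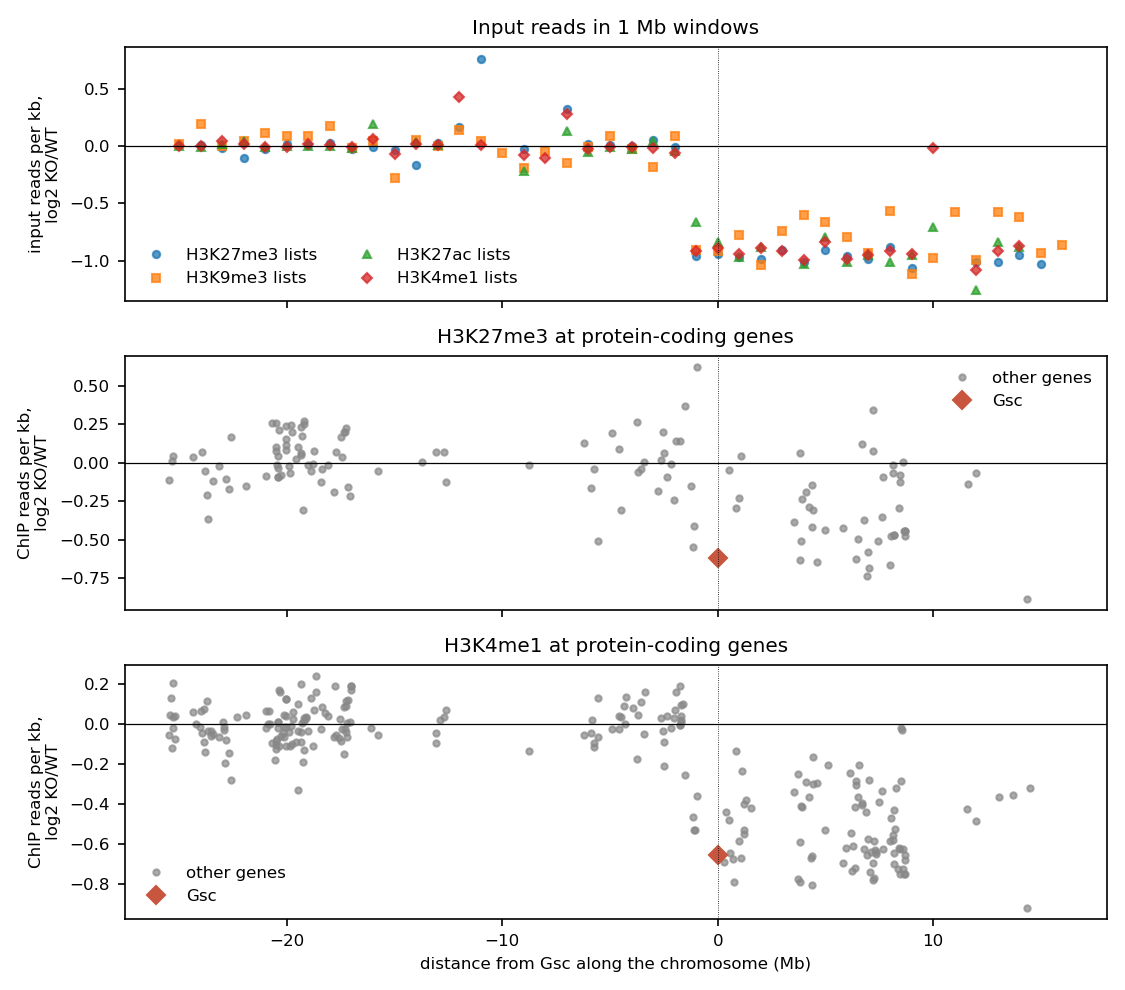
Log2 KO/WT against distance from Gsc along the chromosome in Mb. The top panel shows input reads per kb in 1 Mb windows for the lists of 4 marks, and the lower panels show H3K27me3 and H3K4me1 density at single genes, with Gsc as a diamond. The input falls to between −0.83 and −0.94 at Gsc, and both marks are lower at most genes on the same side.

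Inside the regions called at Gsc, the H3K27me3 lists counted 18.2, 18.4 and 18.3 input reads per kb in WT and 10.4, 10.1 and 10.9 in KO. The H3K4me1 lists counted 30.4, 31.2 and 30.7 in WT and 16.0, 15.8 and 16.0 in KO. ChIP reads per input read, with no scaling for depth, were 4.02, 4.63 and 4.33 in WT and 5.45, 4.68 and 4.64 in KO for H3K27me3. For H3K4me1 they were 3.67, 2.84 and 3.71 in WT and 3.90, 4.37 and 4.01 in KO. Over all called regions this ratio was 2.24 to 2.401 in WT and 1.93 to 2.00 in KO for H3K27me3, and 2.37 to 2.38 in WT and 2.37 to 2.398 in KO for H3K4me1. Divided by the ratio over all calls of the same library, Gsc had 1.68, 2.07 and 1.92 in WT and 2.80, 2.34 and 2.403 in KO for H3K27me3, and 1.54, 1.196 and 1.57 in WT and 1.63, 1.83 and 1.69 in KO for H3K4me1. Relative to input, neither mark was lower in KO inside the regions called at Gsc. These regions differed in length, with 22800, 22000 and 24600 bp in WT and 10400, 16600 and 13000 bp in KO for H3K27me3. For H3K4me1 they had 11800, 23000 and 11400 bp in WT and 9000, 8000 and 9400 bp in KO. The ratios thus do not compare the same sequence between the genotypes. In each experiment the replicates of a genotype shared 1 input. A difference in the marks at Gsc and a difference in the DNA of this stretch therefore cannot be told apart. The same holds for the H3K4me3 and H3K27ac coverage of Gsc.

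To place the 10 genes, 30 further genes of gastrulation signalling and of early mesoderm and endoderm were examined in the same fits. For H3K4me3, 4 of 27 tested passed in limma, 1 higher and 3 lower, against 9.96% and 10.7% of all tested genes. Axin2, a feedback inhibitor of WNT signalling, was higher (log2 0.74 ± 0.22, adjusted p 0.0257). Fgf8, an FGF ligand of the streak, was lower (−0.95 ± 0.24, adjusted p 0.0101), as were Tdgf1, the NODAL co-receptor (−0.70 ± 0.19, 0.0164), and Nodal itself, the ligand (−0.59 ± 0.18, 0.0284). Each of these calls was lost in 2 to 5 of 13 alternatives. Which peak in the window gave each of these values was not examined, unlike at Lhx1 and Evx1. Over the 27 genes the median was −0.18, and −0.10 over the mesendoderm regulators.

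For H3K27me3, Pdgfra, a growth factor receptor of early mesoderm, was the 1 gene of 22 tested that passed in edgeR (1.57% of all tested genes), at a log2 of −0.27 ± 0.06 and an adjusted p of 0.0469, and this was lost in 9 of 14 alternatives. For H3K27ac, Snai1, the repressor of epithelial genes in the streak, was higher (0.37 ± 0.05, adjusted p 0.00245) and Lef1, the WNT effector, lower (−0.22 ± 0.05, 0.0355), 2 of 26 tested against 9.35% of all genes, and these calls were lost in 2 and 7 of 14 alternatives. For H3K4me1 Snai1 was higher (0.41 ± 0.03, adjusted p 1.19e-05) and so was Cdx1, a homeobox factor of the posterior body (0.21 ± 0.03, 0.00212), and Lef1 was lower (−0.12 ± 0.03, 0.0260), 3 of 30 tested against 8.27% of all genes, where only the call of Lef1 was lost in any alternative (5 of 14). Snai1 lies where the KO input was raised, by a mean log2 of 0.51, and the part of this in its values was not tested. At Cdx1, Lef1 and Pdgfra the mean input log2 lay between −0.01 and 0.03. For H3K9me3 the 4 tested genes had log2 values between −0.10 and 0.22, with adjusted p from 0.610 to 0.902.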

How the data were processed

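The 30 ChIP libraries (5 marks, 3 WT and 3 KO each) were grouped by genotype from the labels, and the 8 inputs entered only through the input reads counted in the lists. Per the study's methods, the authors trimmed 50 bp single-end reads with Trim Galore 0.6.6, aligned H3K4me3, H3K27me3 and H3K4me1 to GRCm38 with Bowtie2 2.4.4, marked duplicates with SAMtools 1.15 and removed blacklisted sequence. The aligner for H3K27ac and the processing of H3K9me3 are not given in the sources used here. For H3K4me3 the authors deposited MACS2 2.2.7.1 peaks, called per library, giving for each peak a score, the fold enrichment over input and the −log10 of its p-value and q-value, without read counts. For the remaining marks the authors deposited epic2 regions (SICER 0.0.52 per the labels) in bins of 200 bp, with a count of ChIP reads and of input reads, a p-value, an FDR, a log2 fold change and a score. All deposited calls had an FDR under 0.05. The labels and the methods name different antibodies for H3K27ac, and the labels give that of H3K4me1.

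Windows were gene bodies (GENCODE M21, GRCm38) with 5 kb either side. The counts of all calls overlapping a window by at least 1 bp were summed and tested per mark over all protein-coding genes with a call in 6 of 6 libraries, with edgeR 4.0.16 (R 4.3.3, quasi-likelihood, TMM, summed call length as offset). Densities are counts per kb of called sequence divided by the library factor. Log2 of the highest H3K4me3 fold enrichment, centred per library, was tested with limma 3.58.1. P-values were Benjamini-Hochberg adjusted over all genes tested, with a threshold of 0.05. SEs of edgeR values are approximate. Covered base pairs were compared by a two-sided exact permutation test over 20 assignments (smallest p 0.1). DESeq2 1.42.0 was an alternative. The log2 estimates of the tests were checked on simulated data. Call lengths there were kept as observed, so calls that change in length with the signal were not covered by this check. The 10 genes, the 30 further genes and the motifs were chosen with earlier results of these data known. All 10 are named. Of the 30, at most 3 per mark and direction are named, those with the largest change among genes past the threshold whose groups did not overlap. Tables were read with Python 3.11.15 and pandas 2.3.3, and figures drawn with matplotlib 3.10.9. Counting depth limits precision, and reads are not independent molecules.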

Additional observations from a re-analysis of the deposited data

How the results depend on the processing

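The fits had 3 libraries per genotype, so single libraries decide several calls. Of 617 alternative values of log2 at named genes, 537 kept their direction and side of the threshold, 52 lost the call, 2 gained one and 26 changed sign, none of the last past the threshold. The number of genes called moved by over 1.5 times in H3K27me3 from 153 to 343 with DESeq2 and 356 among genes of like call length, in H3K9me3 from 67 to 134 with DESeq2, and in H3K27ac from 1368 to 659 with like length. Like length left far fewer genes to test, and the share called rose from 1.57% to 37.4% in H3K27me3, from 1.09% to 17.2% in H3K9me3, from 9.35% to 39.7% in H3K27ac and from 8.27% to 35.3% in H3K4me1. Regions merged over the libraries are not genes, so their calls are given as shares, 2.73% of regions against 1.57% of genes in H3K27me3, 0.435% against 1.09% in H3K9me3, 12.8% against 9.35% in H3K27ac and 5.64% against 8.27% in H3K4me1. The cause was not tested, except that like length and merging change which features are tested. Of the 10 genes, H3K4me3 had 1 called without centring, with a 2 kb window and with peaks within 2 kb of the 5′ end (an alternative chosen after seeing the data). With like length 1 of the 10 could be tested in H3K27me3 (Evx1, not Gsc) and in H3K27ac (T), and 0 and 1 were called. Coverage separated the genotypes at 1 gene in H3K4me3 with a 2 kb window, at 0 in H3K27me3 and 2 in H3K27ac with an FDR under 0.01 or the same number of top-ranked calls. H3K4me3 lay at the 5′ end of 6 genes in place of 2 when 500 bp within 1000 bp on either side were required.

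Samples with the same number did not deviate together from gene to gene (correlations from −0.0219 to 0.0264). The values were scaled or centred per library, which removes a shift of a whole library. These correlations therefore cannot decide whether the numbers pair the samples. With a replicate block, 96 genes were called in H3K27me3 and 0 of the 10 genes, 9 genes in H3K9me3 and 795 in H3K27ac, and coverage separated 4077 genes in H3K27me3 and 3103 in H3K9me3. The block changed no other count by over 1.5 times.

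Leaving out each library in turn gave 66 to 171 genes called in H3K27me3, 4 to 49 in H3K9me3, 809 to 930 in H3K27ac, 989 to 1060 in H3K4me1 and 1887 to 2050 in H3K4me3. Of the 10 genes, 0 to 1 were called in H3K27me3 and 0 to 2 in H3K4me3. Coverage separated 1 to 4 of them in H3K27me3, 3 to 5 in H3K4me1, 2 to 3 in H3K4me3 and 2 to 2 in H3K27ac, and 2752 to 3133 genes in H3K9me3.

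Values that changed sign were, in H3K4me3, Mixl1 (0.0040 without centring), and in H3K27me3 Eomes (−0.11) and Mesp1 (0.042) in merged regions. In H3K27ac they were Eomes without TMM factors (−0.036), and Mesp2 (−0.00022) and Tbx6 (0.071) in merged regions. In H3K4me1 they were Tbx6 with like length (−0.14) and in merged regions (−0.019), and Msgn1 with prorated counts (0.0047), in merged regions (0.10) and with a 2 kb window (0.091). Without 1 library the log2 ranged from −0.39 to 0.25 for H3K4me3 at Mesp1, from −0.16 to 0.047 at Mixl1 and from −0.076 to 0.47 at Tbx6. For H3K27me3 it ranged from −0.15 to 0.10 at T, from −0.034 to 0.20 at Eomes, from −0.24 to 0.0097 at Mesp1 and from −0.28 to 0.053 at Lhx1. For H3K27ac it ranged from −0.019 to 0.076 at Eomes, from −0.027 to 0.022 at Tbx6 and from −0.085 to 0.011 at Evx1, and for H3K4me1 from −0.095 to 0.075 at Lhx1.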

Other observations

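The genes whose covered shares followed those of the mesendoderm regulators most closely included homeobox genes of other tissues. Over the 30 libraries, the share of the window covered by calls correlated with the mean of the 10 genes by a Pearson r of 0.996 at Six2, a homeobox factor of kidney progenitors, 0.994 at Skida1 and at Shank1, a scaffold protein of synapses, and 0.993 at Hoxb8, a homeobox factor of the trunk, and at Fgf8. At Six2, H3K27me3 covered 100% of the window, H3K4me1 97.6%, H3K27ac 67.4% and H3K4me3 6.46%, as means over 6 libraries. The means of the 10 genes were 73.2%, 74.3%, 51.6% and 7.48%. These are descriptions, since the 30 points differ mainly by mark and share libraries, and 1794 of 20234 genes had an r above 0.9.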
